A study of Mus musculus with 12 samples.

Results

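Receptors for the cytokines IL-1, IL-33, IL-18 and IL-25 were measured in lymph node (LN) T cells of 4 groups: CD4+ and CD8+ T cells of B6 mice, and the CD8.1 and CD8.2 subsets of CD8 Dual mice. The members are 7 of the 49585 genes of the count table, found by symbol: *Il1rl1*, *Il1r2*, *Il17rb*, *Il1r1*, *Il1rap*, *Il18r1* and *Il18rap*. They were chosen because *Il1rl1*, *Il1r2* and *Il17rb* mark helper cells in these data, so members were selected on the difference between helper and cytotoxic cells. Their values in the comparisons of B6 CD4+ with B6 CD8+ and of CD8.1 with CD8.2 cells are therefore a description, with no test. The comparisons between strains (CD8.1 with B6 CD4+, CD8.2 with B6 CD8+) and the interaction, which asks whether the lineage difference differs between strains, are not part of that rule and were tested with edgeR across 13118 genes, although earlier results of these data were known when the members were chosen. Of the 7 members, 6 passed the filter on low counts. *Il1r1* did not pass, and *Il1rl1*, *Il1r2* and *Il17rb* passed only through the helper groups in which they are high. In each group, the 3 samples of a gene were held against the limit of 0.443 CPM that this filter sets. *Il1rl1* and *Il17rb* were past it in both helper groups, *Il1r2* in 3 CD8.1 and only 2 B6 CD4+ samples, and *Il1rap*, *Il18r1* and *Il18rap* in all 12 samples.

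By the labels all mice were male and 6 to 10 weeks old, while the methods of the study speak of both sexes. B6 stands for C57BL/6. In the CD8 Dual strain (8in4 in the labels), CD8α.1 and CD8β are made from a modified *Cd4* gene and CD8α.2 from the strain's own, unchanged *Cd8a* gene. CD8.1 cells thus express the product of the *Cd4* locus and CD8.2 cells that of the *Cd8* locus. Cells were sorted from LN as TCRβ+ (antibody H57) with a further surface gate, and RNA came from pooled sorted cells, with 3 samples in each group. The methods of the study call the cells naive and add a CD44- gate that the labels lack. Whether replicates come from separate animals is not stated, so p-values here measure only the spread between these samples. Each sample held 18667474 to 37110502 counts, and levels are in CPM, which divides counts by the TMM-normalized depth of each sample.

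Receptors of the IL-1 family work as pairs, in which a chain that binds the cytokine recruits an accessory chain, and the TIR domains of both chains then bind MYD88, IRAK kinases and TRAF6 to activate NF-κB. IL1RAP is the accessory chain for IL-1 and IL-33, whose binding chains are IL1R1 and IL1RL1 (also named ST2), whereas IL18RAP pairs with IL18R1 for IL-18. IL1R2 binds IL-1 as a decoy without a TIR domain. IL17RB belongs to a separate family and forms the IL-25 receptor with IL17RA. Among T cells, ST2 is best known on T helper 2 cells and on tissue regulatory T (Treg) cells, and IL-18 receptor chains on T helper 1, memory CD8+ and innate-like T cells.

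Transcripts of lineage genes follow the labels. *Zbtb7b*, which encodes the helper factor ThPOK, had means of 159 CPM in B6 CD4+ and 154 CPM in CD8.1 cells, against 0.931 in B6 CD8+ cells and 1.91 in CD8.2 cells. *Runx3*, the cytotoxic lineage factor, had means of 57.0 and 47.5 CPM in the helper groups and 102 and 74.2 CPM in B6 CD8+ and CD8.2 cells. *Cd4* was at 969 CPM in B6 CD4+ and 49.7 CPM in CD8.1 cells, and *Cd8a* at 1423 CPM in B6 CD8+ and 192 CPM in CD8.1 cells. Among the libraries, CD8.2 replicate 3 stands apart: it is the deepest, its chi-square per gene against replicates 1 and 2 was 83.7 and 55.1, and *Gm42418* made up 3.14% of its counts. CD8.1 replicate 1 differs from its replicates 2 and 3 by 30.4 and 31.7 on this measure, and they from each other by 8.48. For tested members and for counts of called members, pathway genes and all genes, values without single libraries are given below. Counts of called markers have no such values.

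*Il1rl1*, the binding chain for IL-33, had 1.05, 1.08 and 2.13 CPM in the B6 CD4+ samples and 13.6, 13.1 and 8.79 CPM in CD8.1 cells. No count was found in any B6 CD8+ sample, and CD8.2 samples held 2, 2 and 3 counts. Every helper sample is thus above every cytotoxic sample, and CD8.1 cells have the highest values of all. From the counts, the ratio of CD8.1 to CD8.2 cells was 128 (95% counting interval 62.0 to 320.3). Such intervals, and the floors used below for groups without counts (3 counts in each library, 0.0875 to 0.167 CPM), cover counting error only.

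*Il1r2*, the decoy receptor, had 0.409, 1.25 and 2.64 CPM in B6 CD4+ cells and 5.01, 5.66 and 4.70 CPM in CD8.1 cells. It was without counts in B6 CD8+ cells and had 2, 4 and 4 counts in CD8.2 cells, a CD8.1 to CD8.2 ratio of 38.9 (20.9 to 81.9). The B6 CD4+ samples spread widely, yet none reaches the lowest CD8.1 sample. *Il17rb*, the IL-25 receptor chain, had 0.500, 1.16 and 0.723 CPM in B6 CD4+ and 3.25, 1.81 and 1.38 CPM in CD8.1 cells. Its counts were 0 in all B6 CD8+ samples and 1, 0 and 0 in CD8.2 samples, so that B6 CD4+ cells were at least 6.35-fold above the floor of B6 CD8+ cells. For all 3 genes, CD8.1 samples lie above B6 CD4+ samples and these above both cytotoxic groups, with no overlap. The cytotoxic groups lie at or near the floor of 3 counts, and no order is read between them.

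The chains for IL-18 run the other way. *Il18r1*, which binds IL-18, had 29.0, 21.1 and 22.8 CPM in B6 CD4+, 53.8, 50.9 and 50.1 in B6 CD8+ samples, 32.2, 18.8 and 25.7 in CD8.1 samples, and 57.4, 51.2 and 54.4 in CD8.2 samples. Its samples form 2 levels, low in both helper groups and high in both cytotoxic groups, and the strains overlap within each level. Helper minus cytotoxic, its log2 difference was -1.09 in B6 and -1.09 in CD8 Dual mice.

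*Il18rap*, the accessory chain that signaling by IL-18 needs, had 0.591, 1.38 and 2.34 CPM in B6 CD4+ and 43.4, 47.0 and 81.1 CPM in B6 CD8+ cells. In CD8 Dual mice the distance was shorter, with 5.97, 4.91 and 3.66 CPM in CD8.1 and 26.1, 26.8 and 23.7 CPM in CD8.2 cells. No groups overlap in their order, which is B6 CD8+, CD8.2, CD8.1, B6 CD4+. The log2 difference between helper and cytotoxic cells was -5.29 in B6 and -2.39 in CD8 Dual mice.

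*Il1rap*, the accessory chain shared by the IL-1 and IL-33 receptors, varied least, from 15.3 to 21.3 CPM over all 12 samples. It had 17.6, 17.7 and 16.2 CPM in B6 CD4+ samples, 17.2, 15.3 and 18.4 in B6 CD8+ samples, 19.4, 18.4 and 18.9 in CD8.1 samples and 19.2, 21.3 and 19.8 in CD8.2 samples. The groups of 1 strain overlap with each other, and the CD8 Dual samples all lie above the B6 samples, the lowest by a narrow margin. *Il1r1*, the signaling receptor for IL-1, was near absent, with 0 to 7 counts in any sample (5, 0 and 5 in B6 CD4+, 0, 6 and 0 in B6 CD8+, 2, 7 and 5 in CD8.1, 0, 1 and 0 in CD8.2 cells) and overlapping neighbours throughout the order.

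Levels of different genes compare only per length of exon. Length here is the union of all annotated exons, 11.4 kb for *Il1rap* and 1.91 kb for *Il1r2*. Counts per gene do not show which transcripts are present, so the order of genes depends on this choice. Per kilobase, *Il18r1* was the most abundant member in every group (means of 5.04, 10.7, 5.31 and 11.3 CPM per kb in B6 CD4+, B6 CD8+, then CD8.1 and last CD8.2 cells). *Il18rap* was near its partner in B6 CD8+ cells (8.47 CPM per kb) and far below it in B6 CD4+ cells (0.213). In CD8.1 cells, *Il1r2* (2.63, 2.97 and 2.46) was above the accessory chain *Il1rap* (1.71, 1.62 and 1.66) in 3 of 3 samples and *Il1rl1* (1.97, 1.90 and 1.27) in 2 of 3, while *Il17rb* (0.579) was far below its partner *Il17ra* (27.7). In B6 CD4+ cells *Il1rl1* (0.206) and *Il1r2* (0.751) were below *Il1rap* (1.51). In bulk samples, fewer cells with a transcript and less of it in each cell cannot be told apart.

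**Figure D1:**
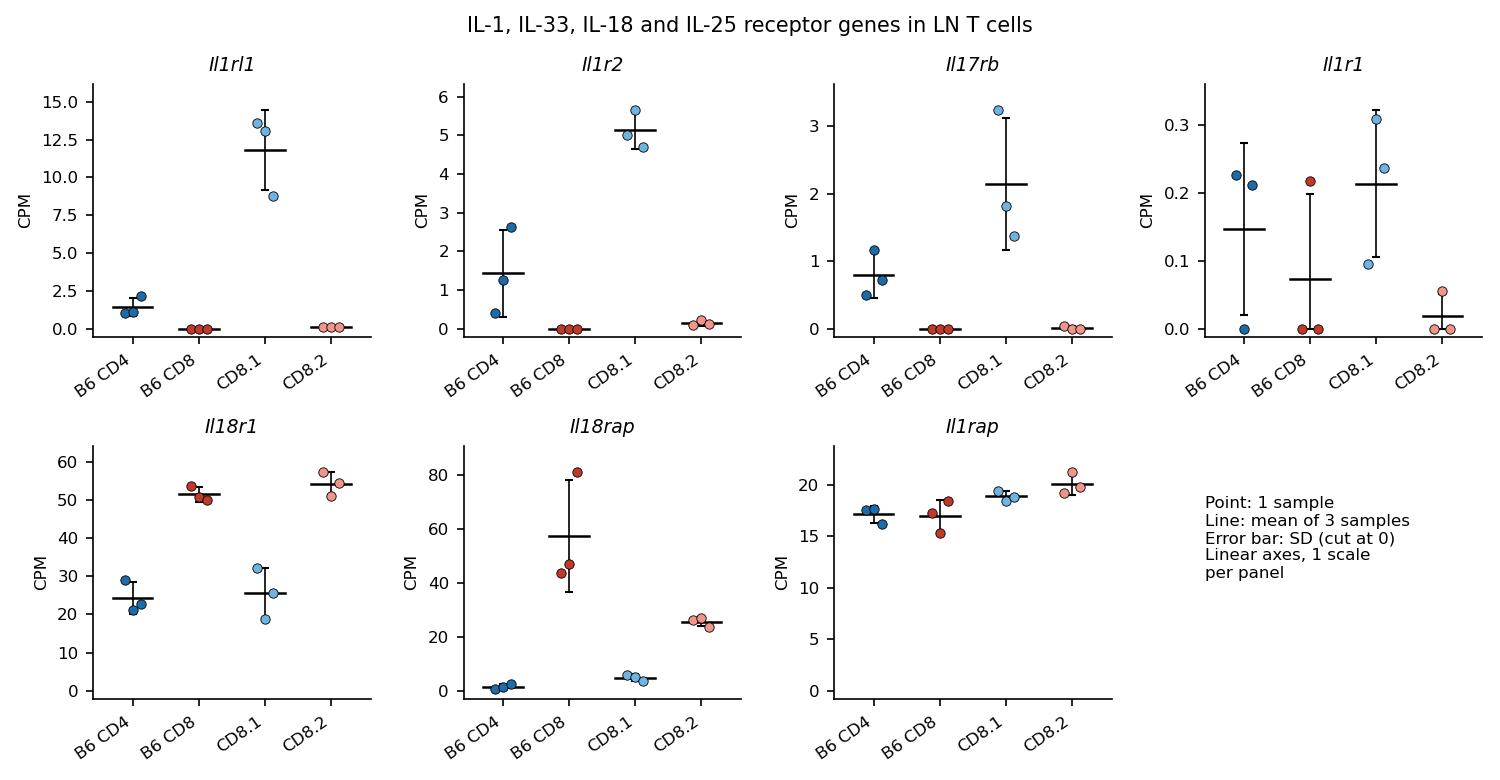
Levels of the 7 members in each of the 12 samples, in CPM. Points are samples, lines are means and error bars are SD.

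Without overlap, 3 of the 7 members were higher in all B6 CD4+ than in all B6 CD8+ samples (*Il1rl1*, *Il1r2*, *Il17rb*) and 2 were lower (*Il18r1*, *Il18rap*). Of all tested genes, 11.4% were called higher and 11.7% lower there at an adjusted p under 0.05. In CD8 Dual mice, 4 of 7 were higher in CD8.1 cells than in CD8.2 cells without overlap, with *Il1r1* added at 2, 7 and 5 counts against 0, 1 and 0 (its lowest CD8.1 sample is under the floor), and 2 were lower, while 14.9% and 13.8% of all tested genes were called. These counts follow from how the members were chosen and nothing is read from them.

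Between helper cells of the strains, 3 of the 5 members past the filter limit in both groups were higher in CD8.1 cells than in B6 CD4+ cells, where 6.94% of all tested genes were called higher and 5.82% lower. By edgeR 0 members were lower, also at an unadjusted p under 0.05 (0) and by DESeq2 (0). *Il1rl1* rose most, by 3.05 on the log2 scale (SE 0.277, 8.30-fold, adjusted p = 2.75e-05), and *Il18rap* by 1.74 (SE 0.368, 3.33-fold, adjusted p = 0.00765). *Il17rb* rose by 1.42 (SE 0.436, 2.68-fold, adjusted p = 0.0494). For each of these 3 genes, 3 of 3 CD8.1 samples were above all 3 B6 CD4+ samples. *Il1r2* is in the fit only through CD8.1 cells, where it is high, so its levels above are a description and no test is given. *Il1rap* was also higher in 3 of 3 CD8.1 samples, by a log2 difference of 0.14 that did not pass the test (adjusted p = 0.336), and *Il18r1* overlapped, with 0.07 (adjusted p = 0.801).

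The calls differ in how much they rest on single libraries. *Il1rl1* was called under all 19 alternatives (adjusted p from 2.39e-32 to 0.000490), and without CD8.1 replicate 1 its log2 change was 2.93. *Il18rap* was called under 18 of 19 (7.30e-20 to 0.0381), with 1.55 without CD8.1 replicate 1, and did not pass the 5-fold limit of the study. *Il17rb*, called under 4 of 18 alternatives (0.0106 to 0.179), kept its call with 1 library left out only where that was CD8.1 replicate 3 (adjusted p = 0.0410). Without any 1 of the other 11 libraries its adjusted p was 0.0560 to 0.179, and without CD8.1 replicate 1, which has the highest level, its log2 change was 0.98 (adjusted p = 0.144). The count of 3 is thus 2 without any 1 of these 11 libraries. With the replicate number as a block, *Il17rb* also lost its call (adjusted p = 0.0830).

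Between cytotoxic cells of the strains, 1 of the 3 members past the filter limit in these groups was lower in CD8.2 cells than in B6 CD8+ cells, where 4.66% of all tested genes were called lower and 3.29% higher. That gene, *Il18rap*, fell by 1.16 on the log2 scale (SE 0.238, 2.24-fold, adjusted p = 0.00820), with 3 of 3 CD8.2 samples below all B6 CD8+ samples. Over 19 alternatives the adjusted p was 5.68e-21 to 0.0485, the highest without CD8.2 replicate 3 (log2 -1.11). The log2 change was smallest, -0.84, without B6 CD8 replicate 3 (adjusted p = 0.0359), and only the 5-fold limit ended the call. By edgeR 0 of the 3 were called higher, against 1 at an unadjusted p under 0.05 and 0 by DESeq2. *Il1rap* (log2 0.24, adjusted p = 0.126, higher in 3 of 3 samples) and *Il18r1* (0.08, adjusted p = 0.809) did not pass. *Il1r2*, *Il1rl1* and *Il17rb* had 10, 7 and 1 counts in all CD8.2 samples against 0, and were in the fit only through helper cells, so nothing is read from their tests here. They move the count of members called: edgeR called none of them, and *Il1r2* was called by DESeq2 (adjusted p = 0.0230) and without B6 CD4 replicate 1 (0.0438), and *Il1rl1* without B6 CD4 replicate 3 (0.0459), which makes 2 in place of 1.

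The lineage difference itself differed between strains for 1 of the 3 members past the filter limit in all 4 groups, *Il18rap*, against 1.58% of all tested genes with a positive interaction and 0.290% with a negative one. In B6 mice helper cells have far less *Il18rap* than cytotoxic cells, and this distance was 2.90 log2 units smaller in CD8 Dual mice (SE 0.437, adjusted p = 0.00155). It held under all 18 alternatives (adjusted p from 1.08e-39 to 0.00951), with 2.71 without CD8.1 replicate 1 and 2.84 without CD8.2 replicate 3. With 1 library left out, it was lowest without B6 CD4 replicate 1 (2.54) and highest without B6 CD4 replicate 3 (3.43). Helper samples are higher (3 of 3) and cytotoxic samples lower (3 of 3) in CD8 Dual than in B6 mice. By edgeR 0 members had a negative interaction, at an unadjusted p under 0.05 also 0, and by DESeq2 0. For *Il18r1*, its partner chain, the interaction was -0.00 (SE 0.215, adjusted p = 0.995). *Il1rap* (-0.10, adjusted p = 0.786) did not pass. For *Il1rl1*, *Il1r2* and *Il17rb*, with few or no counts in cytotoxic cells, no interaction is given. Among the markers described below, edgeR called a positive interaction for 7 of 9 memory markers (median 1.51, all tested genes -0.00). It did so for 7 of 18 Treg, 2 of 7 NKT and 1 of 4 NK cell markers, with 0 negative calls in these lists. The part of such cells in the *Il18rap* interaction was not tested.

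The 3 members that rose in CD8.1 cells did so beside markers of other T cell states. In what follows, a marker counts as higher or lower where edgeR called it. Of 18 tested Treg markers, 17 were higher in CD8.1 cells than in B6 CD4+ cells (median log2 1.46, against 0.00 for all tested genes), and their sum was 509, 579 and 684 CPM in B6 CD4+ against 1127, 1302 and 1173 CPM in CD8.1 samples, with *Izumo1r* the most abundant. *Foxp3*, which defines Treg cells, rose 3.64-fold (log2 1.87, SE 0.174, adjusted p = 1.18e-05, higher in 3 of 3 samples, called with any 1 library left out). Relative to 100 CPM of *Foxp3*, *Il1rl1* stood at 3.21, 2.85 and 4.77 in B6 CD4+ and at 13.3, 8.78 and 5.23 in CD8.1 cells, while *Il1r2* overlapped (1.26, 3.31 and 5.92 against 4.91, 3.80 and 2.80), as did *Il17rb* (1.53, 3.08 and 1.62 against 3.18, 1.22 and 0.820). This ratio was chosen after the values were seen and was not tested.

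Memory and innate memory markers were higher in CD8.1 cells than in B6 CD4+ cells for 9 of 9 genes (median log2 1.35), with sums of 219.5, 244 and 278 against 573, 601 and 513 CPM and *Il2rb* the most abundant in these groups. Of 6 naive T cell markers, 0 were higher and 1 was lower (median log2 0.01). T helper 2 and T helper 17 markers were higher for 4 of 6 tested genes (median log2 0.96, sums 55.9, 54.9 and 71.7 against 94.9, 112 and 97.3 CPM, led by *Gata3*). Markers of NKT cells were higher for 3 of 7 (median log2 0.45, sums 179, 194 and 204 against 266, 228 and 218 CPM, led by *Slamf6*). *Zbtb16*, which defines that lineage, had 4, 23 and 12 counts in CD8.1 cells, 1 count in CD8.2 cells and 0 in all B6 samples. NK cell markers were higher for 2 of 4 (median log2 0.78, sums 6.69, 8.97 and 7.14 against 8.78, 16.9 and 11.3 CPM, led by *Eomes*). What part such cells have in the receptor transcripts was not tested.

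Cells other than T cells were sought in the same way. B cell markers were higher in CD8.1 cells than in B6 CD4+ cells for 2 of 7 genes, and for 6 at an unadjusted p under 0.05 (median log2 0.76, sums 535, 574 and 538 against 645, 784 and 651 CPM, led by *Ighm*). Myeloid and neutrophil markers were higher for 3 of 6 tested genes, and for 5 at an unadjusted p under 0.05 (median log2 1.80, sums 3.77, 6.47 and 8.08 against 18.9, 14.3 and 14.4 CPM, led by *Lyz2*). Of mast cell, basophil and innate lymphoid markers, 1 of 3 tested genes was higher, the widely expressed *Id2* (median log2 0.54, sums 41.9, 53.2 and 48.2 against 66.9, 65.9 and 73.9 CPM). The defining gene *Fcer1a* was at 0 in all 12 samples and *Cpa3* had 0 to 3 counts, so these mast cell markers are at or near 0. Stromal and endothelial markers were lower for 1 of 3 tested genes (median log2 -0.36, sums of 167 to 207 against 138 to 159 CPM, led by *Pecam1*), and *Pdgfra* was at 0 throughout. The TCRβ+ gate should remove B, myeloid and NK cells and a CD44- gate memory cells, and their part in the results was not tested.

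The fall of *Il18rap* in CD8.2 cells stands beside lower memory markers, of which 4 of 9 were lower than in B6 CD8+ cells (median log2 -0.14). Another was higher at an unadjusted p under 0.05, and 4.66% of all tested genes were called lower. The sum of the memory markers was 1611, 1704 and 2001 CPM in B6 CD8+ against 1122, 1146 and 1127 CPM in CD8.2 samples. Of 6 naive T cell markers, 1 was higher and 0 were lower (median log2 -0.05). NKT markers were lower for 2 of 7 tested genes, *Cxcr6* and *Plac8* (sums 624, 679.9 and 824 against 438, 473 and 448 CPM), while 2 others were higher at an unadjusted p under 0.05 and the median log2 was 0.15. NK markers were lower for 1 of 4 (median log2 -0.27, sums 85.3, 79.6 and 128 against 85.3, 83.3 and 79.1 CPM). The B6 CD8+ sample with the highest *Il18rap*, replicate 3, also has the highest of these 3 sums. Of the 18 Treg markers, 2 were higher and 3 lower (median log2 0.30), and their part and that of the memory markers in the *Il18rap* result was not tested. B cell markers were higher for 2 of 7 genes, and for 4 at an unadjusted p under 0.05 (median log2 0.64, sums 643, 658 and 630.2 against 665, 679.8 and 591 CPM) and myeloid markers for 1 of 6, *Lyz2*, with 4 at an unadjusted p under 0.05 and 2 by DESeq2 (median log2 1.52, sums 3.07, 3.38 and 6.59 against 10.4, 21.1 and 8.52 CPM). The part of such cells was not tested either.

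**Figure D2:**
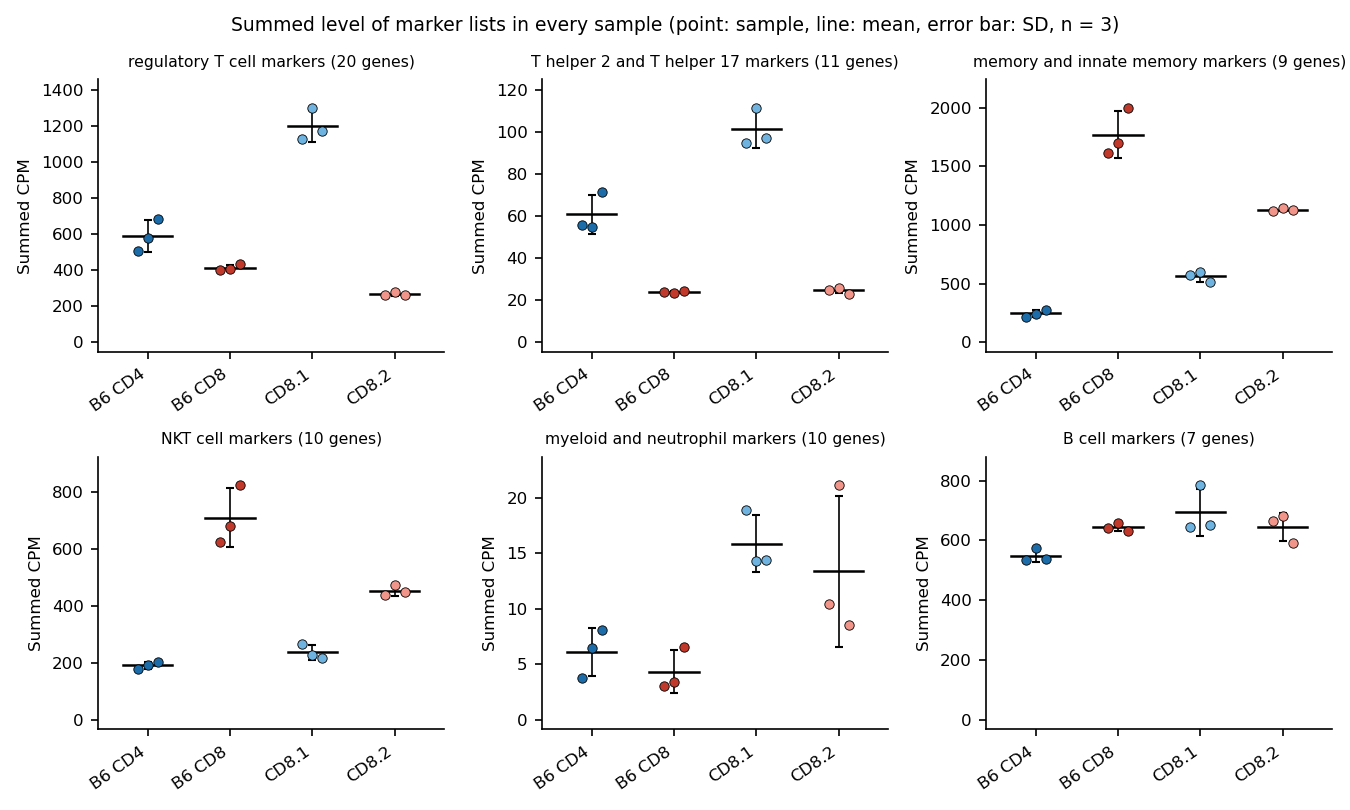
Summed CPM of 6 marker lists in every sample, with means and SD.

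Around the receptors, the 3 pathway lists (receptor relatives, ligands and antagonists, adaptors and kinases) hold 54 genes, of which 36 were tested. Transcripts of the ligands were scarce, as *Il25*, *Il17b*, *Il17c*, *Il1f10*, *Il36a*, *Il36b* and *Il36rn* had no counts and *Il33* had 4 counts in 1 CD8.1 sample. Among receptor relatives, 4 of 8 were tested. *Il17ra*, the partner of *Il17rb*, and *Sigirr*, an inhibitory receptor, were present in all groups, with means of 201 to 239.8 CPM and 54.6 to 65.9 CPM. *Il1rl2*, the IL-36 receptor, was the only gene of this list that edgeR called by lineage, at 19.9 CPM in B6 CD4+ against 9.68 CPM in B6 CD8+ cells (log2 1.04, SE 0.115, adjusted p = 6.12e-06) and 15.8 against 8.59 CPM in CD8.1 and CD8.2 cells (log2 0.87, SE 0.117, adjusted p = 4.92e-05), higher in 3 of 3 samples each time and called with any 1 library left out. DESeq2 called 2 genes of the list higher in CD8.1 than in CD8.2 cells.

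By lineage, 7 of the 36 pathway genes were higher and 1 lower in B6 CD4+ cells than in B6 CD8+ cells (median log2 0.07, all tested genes -0.00), and 6 were higher and 1 lower in CD8.1 cells than in CD8.2 cells (median 0.07, all tested genes -0.00). Of all tested genes, 11.4% were higher and 11.7% lower in B6 mice, and 14.9% and 13.8% in CD8 Dual mice. How the list differs from all genes in these shares was not tested, here or between strains. Without B6 CD4 replicate 3 the count of 8 in B6 mice was 4, and without B6 CD8 replicate 1 it was 5. *Irak3*, a member of the IRAK family that restrains signaling, showed the largest difference among the pathway genes that were called in both strains and had over 1 CPM in helper cells. It had 5.32, 5.35 and 3.19 CPM in B6 CD4+, 0.532, 0.218 and 0.385 in B6 CD8+ samples, 9.16, 7.70 and 13.5 in CD8.1 samples, and 1.28, 0.500 and 0.817 in CD8.2 samples. Helper and cytotoxic samples do not overlap (log2 3.61 in B6 mice, and log2 3.52, SE 0.329, adjusted p = 1.16e-06 in CD8 Dual mice). The B6 CD8+ samples at 0.218 and 0.385 CPM are under the filter limit of 0.443 CPM. The B6 value of *Irak3* is therefore a description with no test, although the count of 7 includes its edgeR call. *Irak2* (log2 0.69 and 0.76) and *Nfkbiz* (0.72 and 1.05), an NF-κB target and cofactor, were also higher in helper cells of both strains. In B6 mice *Nfkbiz* was not called without B6 CD4 replicate 3 (adjusted p = 0.0689) or B6 CD8 replicate 1 (0.0529). *Peli2*, a Pellino ubiquitin ligase, had low counts (7, 3 and 5 in B6 CD4+, 1, 0 and 1 in B6 CD8+, 21, 18 and 19 in CD8.1 and 0, 1 and 2 in CD8.2 samples), and the cytotoxic groups overlap. It is in the fit only through CD8.1 cells, where it is high, so no test of it is given. The counts of 7 and 6 higher genes include its edgeR calls, and the one in B6 mice was not made by DESeq2. The 6 also include *Il18*, which DESeq2 did not call.

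Between strains, edgeR called 6 of the 36 higher and 3 lower in CD8.1 cells than in B6 CD4+ cells (median log2 0.03, all tested genes 0.00), against 6.94% and 5.82% of all tested genes. The 6 include *Peli2* and *Il18*, which are not past the filter limit in all B6 CD4+ samples. *Casp1*, the protease that matures IL-1β and IL-18, had 2.59, 2.11 and 1.79 CPM in B6 CD4+ and 8.11, 4.25 and 8.17 CPM in CD8.1 cells, without overlap (log2 1.66, SE 0.280, adjusted p = 0.00187), and was called with any 1 library left out. *Irak3* rose as well, in 3 of 3 samples (log2 1.13, SE 0.277, adjusted p = 0.0161). It lost its call without B6 CD4 replicate 3 (adjusted p = 0.0538) or CD8.1 replicate 3 (0.0708). *Peli2* (counts above) and *Il18* (counts 0, 2 and 11 against 22, 17 and 15) were each higher in 3 of 3 CD8.1 samples. Because of the filter limit, these levels are a description and no test is given. The edgeR calls of both were also lost without single libraries. The other genes called were *Nfkbia* and *Traf3ip2* (higher) and *Ikbkb*, *Tab1* and *Traf3* (lower), with log2 changes between -0.61 and 0.31. The total of 9 moved with single libraries: it was 14 without CD8.1 replicate 1, 5 without CD8.1 replicate 3, 4 without B6 CD4 replicate 1 and 3 without B6 CD4 replicate 2.

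In CD8.2 against B6 CD8+ cells, 3 were higher and 2 lower (median 0.02, all tested genes -0.00), where 3.29% of all tested genes were higher and 4.66% lower. Of the genes called, *Casp1* changed most, from 0.983, 1.67 and 0.818 CPM to 7.36, 5.67 and 5.57 CPM (log2 2.39, SE 0.298, adjusted p = 0.000263, called with any 1 library left out). *Nfkbia* and *Traf5* were also higher, and *Ikbkb* and *Traf3* lower. The total of 5 was 3 without B6 CD4 replicate 2, without B6 CD8 replicate 1 or 3, and without CD8.2 replicate 1, 2 without B6 CD8 replicate 2 or CD8.2 replicate 3, and 1 without CD8.2 replicate 2. For the interaction, edgeR called 0 of the 36 in either direction, with 0 at an unadjusted p under 0.05 and 0 by DESeq2 (median -0.07, all tested genes -0.00).

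Of the members, 5 lie side by side on chromosome 1. With *Il1rl2* they fill chr1:40074079-40551705 (478 kb on GRCm38), 6 protein-coding genes that all read in the + direction, in the order *Il1r2*, *Il1r1*, *Il1rl2*, *Il1rl1*, *Il18r1*, *Il18rap*. The members higher in helper cells (*Il1r2*, *Il1rl1*) come before those higher in cytotoxic cells (*Il18r1*, *Il18rap*), and the border is narrow, as *Il1rl1* and *Il18r1* are 136 bases apart. *Il18rap* begins 14507 bases after *Il18r1* ends. The neighbour *Map4k4* had means of 165, 209, 131 and 163 CPM in B6 CD4+, B6 CD8+, then CD8.1 and last CD8.2 cells, lower in both CD8 Dual groups (log2 -0.33, adjusted p = 0.0431, and log2 -0.36, adjusted p = 0.0396). These calls held in only 5 of 12 fits with 1 library left out, with 0.0614 without CD8.1 replicate 1 for the helper cells and 0.101 without CD8.2 replicate 3 for the cytotoxic cells. *Slc9a4* and *Slc9a2*, on the other side, were near 0. *Il1rl1* has transcripts of 2 kinds in GENCODE M21, short ones that end early and encode soluble ST2 and long ones that encode the membrane receptor, and counts per gene do not separate them.

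**Figure D3:**
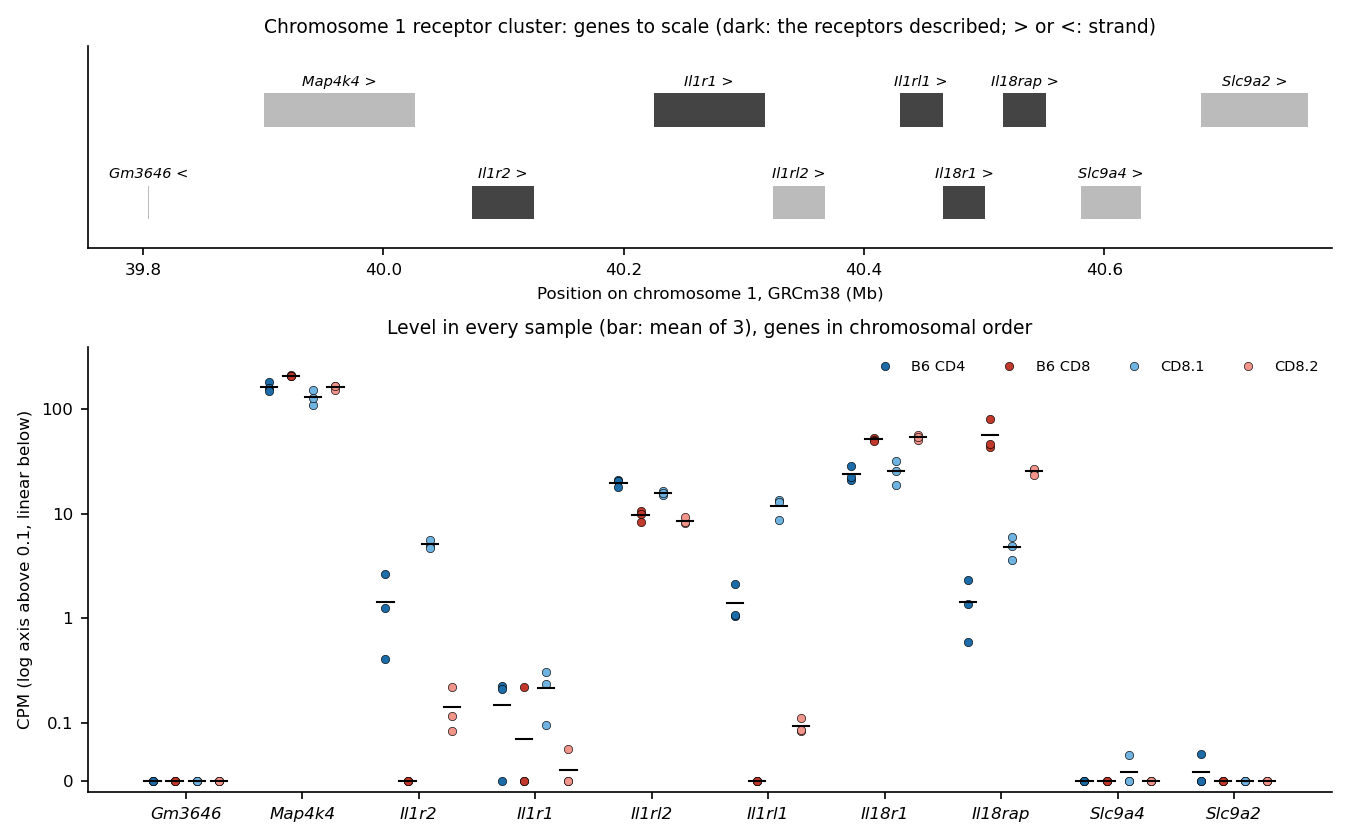
The *Il1r2* to *Il18rap* cluster on chromosome 1 with its neighbours. Points are CPM of single samples and lines are group means.

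*Il17rb* lies apart, on chromosome 14 in the - direction, and its start is 127 bases from that of *Chdh*, which encodes choline dehydrogenase and reads the other way. *Chdh* had 61, 82 and 62 counts in B6 CD4+, 0 in all B6 CD8+, 94, 129 and 127 in CD8.1, and 4, 1 and 3 in CD8.2 samples. Like *Il17rb* it is thus highest in CD8.1 cells and has few or no counts in cytotoxic cells, and it was added after its values were seen. For this reason no test of *Chdh* is given. *Actr8* overlaps *Il17rb*, and because the use of strand in counting is not stated, reads of the overlap may be assigned to either gene.

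Genes most like each member were sought by Pearson correlation of log2 CPM over the 12 samples, among 11266 genes. Since the samples form 4 groups, the values mostly describe group means. For *Il1rl1* they were *Capg* (r = 0.992), *Ccr4* (0.992) and *Nrp1* (0.991), of which *Capg* and *Nrp1* are on the Treg list and *Ccr4* on the T helper 2 list. *Il1r2* was most like *Socs2* (0.982), *Ccr4* (0.980) and *Plcl1* (0.978), and *Il17rb* like *Il2ra*, *Ncmap* and *Sc5d* (each 0.980). For the chains of the IL-18 receptor they were *Miga1* (0.991), *Gch1* (0.975) and *Serpini1* (0.970) for *Il18r1*, and *Myo1f* (0.986), *Cd160* (0.985) and *Trbv29* (0.983) for *Il18rap*. *Il1rap*, with little variation, had lower values (*Rnf13* 0.934, *Rspry1* 0.930, *Zfp87* 0.910).

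Promoter windows from RefSeq (GRCm38.p6, 250 bases before to 50 after a start) were found for 7 of 7 members, 11 windows in all, and searched on both strands for letters typical of 4 factor families. For Runx factors the letters were TGTGGT, which 16.8% of the 32851 promoters of the table hold. For GATA factors, among them the T helper factor GATA3, they were AGATAA, held by 11.2% of promoters. Forkhead factors such as FOXP3 were searched by the letters TGTTTAC, found in 3.65% of promoters. AP-1, which acts after T cell receptor signaling, was searched by the letters TGANTCA, found in 7.81%. Of the 11 windows, 5 hold at least 1. Shown are the windows of *Il1rl1*, *Il17rb* and *Il18rap*, which hold each of the 4 kinds of letters. Of the others, *Il18r1* has Runx letters in 1 of its 3 windows, and *Il1r2*, *Il1r1* and *Il1rap* have none of the letters. *Il1rl1* has 2 windows, chr1:40429320-40429619 and chr1:40439379-40439678 (both +), the first with GATA letters and the second, at the start of a long transcript, with forkhead, GATA and Runx letters in this order. *Il18rap* (chr1:40515112-40515411, +) has Runx letters and *Il17rb* (chr14:30008847-30009146, -) has AP-1 letters. Capitals mark these matches, none of which overlap. A match describes letters only and says nothing of binding.
Il1rl1 first window: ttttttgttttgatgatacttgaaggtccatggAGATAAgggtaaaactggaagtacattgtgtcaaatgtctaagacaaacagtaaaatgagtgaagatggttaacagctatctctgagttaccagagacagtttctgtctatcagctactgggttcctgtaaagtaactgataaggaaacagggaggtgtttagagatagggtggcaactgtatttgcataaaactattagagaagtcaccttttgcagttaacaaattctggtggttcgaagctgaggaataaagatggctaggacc
Il1rl1 second window: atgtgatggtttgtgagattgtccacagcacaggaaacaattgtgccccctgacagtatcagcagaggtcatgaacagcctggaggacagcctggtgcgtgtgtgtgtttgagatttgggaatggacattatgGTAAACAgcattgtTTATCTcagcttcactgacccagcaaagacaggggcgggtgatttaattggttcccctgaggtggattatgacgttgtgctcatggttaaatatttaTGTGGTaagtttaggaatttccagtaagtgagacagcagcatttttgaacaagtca
Il18rap: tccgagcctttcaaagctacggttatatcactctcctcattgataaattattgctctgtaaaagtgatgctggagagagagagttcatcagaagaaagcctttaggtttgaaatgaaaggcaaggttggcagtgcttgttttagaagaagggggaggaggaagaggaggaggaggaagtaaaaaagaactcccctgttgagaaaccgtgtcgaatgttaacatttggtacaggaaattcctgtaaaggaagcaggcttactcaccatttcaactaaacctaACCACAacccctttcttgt
Il17rb: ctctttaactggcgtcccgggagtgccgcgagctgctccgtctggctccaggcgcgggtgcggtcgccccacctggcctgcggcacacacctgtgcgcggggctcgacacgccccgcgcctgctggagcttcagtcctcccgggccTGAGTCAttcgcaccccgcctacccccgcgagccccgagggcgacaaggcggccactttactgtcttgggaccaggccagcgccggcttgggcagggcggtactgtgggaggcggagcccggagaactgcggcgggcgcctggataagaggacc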

How the data were processed

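LN T cells of 4 groups were profiled by RNA-seq, with 3 samples each. The authors aligned reads to mm10 with STAR and made raw counts per gene with RSEM. The deposited values are these counts. The labels name polyA RNA, although total RNA was prepared. limma is also named, and tool versions, annotation release and strand use are not stated. All table columns matched a sample (0 unmapped). Depth was 18667474 to 37110502 counts, and 3 counts correspond to 0.0875 to 0.167 CPM.

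Counts were fitted in R 4.3.3 with edgeR 4.0.16 (TMM, filterByExpr with its minimum of 10 counts, quasi-likelihood test, 1 coefficient per group, all 12 samples), tested on simulated data. Of 49585 genes, 13118 were tested, with a Benjamini-Hochberg adjusted p under 0.05 as threshold. The common biological variation was 11.2%. Replicates differed by a chi-square per gene of 8.48 to 83.7.

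The members and the 13 lists (3 of pathway genes and 10 of markers) were chosen with earlier results of these data known, and 1 marker list is not reported here. Genes named are all members, the list genes described and the 3 genes most like each member. *Chdh* and the ratio to *Foxp3* were added after seeing values. Alternatives were DESeq2 1.42.0 (size factors or Wald test), no filter, a mean of at least 1 CPM, the study's 5-fold rule, only the groups compared, the replicate number as a block, and each library left out. Same-numbered B6 CD4+ and CD8+ samples deviate together (r 0.126 to 0.257), a pairing seen only in the data, since the labels give only numbers. Positions are from GENCODE M21 and figures from matplotlib 3.10.9 under Python 3.11.15.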

Additional observations from a re-analysis of the deposited data

Results flagged for a closer look

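The interaction of *Il18rap* was flagged because the lineage difference differs between the strains: helper minus cytotoxic, the log2 difference was -5.29 in B6 and -2.39 in CD8 Dual mice, a change of 2.90 (SE 0.437, adjusted p = 0.00155, higher in 3 of 3 CD8.1 and lower in 3 of 3 CD8.2 samples than in their B6 counterparts). A positive interaction was also called for 7 of 9 memory markers (median 1.51, all tested genes -0.00). The same holds for 7 of 18 Treg, 2 of 7 NKT and 1 of 4 NK cell markers, and the part of such cells was not tested.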

How the results depend on the processing

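Counts of called genes moved by more than 1.5 times under these settings. Members are here all 6 in the fit, with those that passed the filter through helper cells alone. DESeq2 (Wald test) called 2 members in CD8.2 against B6 CD8+ T cells (1 by edgeR). With no filter on low counts, this was 3 members and 1593 of all genes (1042 with the filter). Under the 5-fold rule of the study, pathway genes were 3, 2, 0 and 2 (8, 7, 9 and 5 before) and all genes 431, 435, 80 and 76 (3030, 3771, 1674 and 1042) for B6 CD4+ against B6 CD8+, CD8.1 against CD8.2, CD8.1 against B6 CD4+ and CD8.2 against B6 CD8+ T cells. Members were 1 (4 before) and 2 (1 before) in the strain comparisons. In CD8.1 against B6 CD4+ T cells, only *Il1rl1* kept its call. In CD8.2 against B6 CD8+ T cells, *Il18rap* lost its call, and the 2 are *Il1rl1* and *Il1r2*. These have few or no counts in cytotoxic cells, and nothing is read from their calls there. The rule sets a limit on the fold and none on the adjusted p, and the effect of each was not told apart. With only the groups compared in the fit, pathway genes were 5 and 8 and all genes 674 and 2515 in CD8.1 against B6 CD4+ and CD8.2 against B6 CD8+ T cells. The cause of all these changes was not tested.

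With the replicate number as a block (replicate block), pathway genes were 10, 8, 7 and 3 in the same order, all genes 3194, 4101, 1501 and 882, members called 3 and 1, and members with an interaction 1. The one member call that changed was *Il17rb* in CD8.1 against B6 CD4+ T cells (adjusted p = 0.0830), and the block changed no other call of a member. Same-numbered samples had r of -0.00388 to 0.119 for CD8.1 and CD8.2, -0.197 to -0.0316 for CD8.1 and B6 CD4+, and -0.101 to -0.00411 for CD8.2 and B6 CD8+ T cells.

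With 1 library left out, pathway genes ranged from 4 to 9, 5 to 10, 3 to 14 and 1 to 6, and all genes from 2418 to 3748, 2632 to 5013, 765 to 2958 and 431 to 1913. Members called ranged from 2 to 4 in CD8.1 against B6 CD4+ and from 1 to 2 in CD8.2 against B6 CD8+ T cells, and members with an interaction stayed at 1. For single genes, levels and correlations, 584 values kept direction and side of the threshold or moved by less than the spread, 19 lost the call, 7 gained it, 1 moved and 0 reversed. Depth limits *Il1r1*, and *Il1rl1*, *Il1r2* and *Il17rb* in cytotoxic cells, to a few counts per library.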
